A study of Mus musculus with 4 samples.

Results

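Myeloid progenitors (MP) sorted from Fbw7-deficient mouse bone marrow were compared with MP cells from wild-type marrow, which uses 2 of the 4 Affymetrix arrays of the series, chosen by their titles, and 12240 of the 18194 genes that the arrays name. The other 2 arrays hold LSK cells, the marrow fraction with the hematopoietic stem cells, of the same genotypes. All animals, wild type included, had received polyI:C, a double-stranded RNA that induces interferon, as 3 injections of 20 ug per g on alternate days, and were sampled 2 weeks later. For each genotype 3 mice were combined into 1 marrow pool, from which both MP and LSK cells were sorted, so each MP array stands for 1 pool. From each population 20 ng of RNA was amplified in a 2-cycle protocol. PolyI:C is widely used to switch on an interferon-inducible Cre recombinase, but the sources used here do not name the driver, the allele or the deleted part of the gene. With 1 array per genotype there is no replicate, so no test was made. Every difference below compares these 2 arrays, and animal-to-animal spread is unknown. Of a pair of intensities, the wild-type value is given first, and log2 differences are Fbw7-deficient minus wild-type.

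Fbw7 is the substrate receptor of an SCF ubiquitin ligase, which marks proteins such as cyclin E, MYC, Notch and JUN for degradation. Arrays measure the mRNA and not the stability of such proteins. The MP fraction of mouse marrow lacks mature lineage markers and Sca1 and carries the receptor KIT. It is a mixture in which granulocyte-monocyte progenitors are CD34-positive with high Fc gamma receptor, common myeloid progenitors are CD34-positive with a lower Fc gamma receptor, and megakaryocyte-erythroid progenitors lack CD34. In such a bulk sample, fewer cells of a type and less RNA per cell cannot be told apart.

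Among the 12240 genes, 101 (0.825%) were at least 2-fold higher in Fbw7-deficient MP cells and 182 (1.49%) at least 2-fold lower. The median log2 difference over all genes was -0.0024 with an SD across genes of 0.36, and 49.6% of genes lay above 0. A difference of at least 4-fold was seen for 9 higher and 16 lower genes. Genes were kept where at least 1 of the 4 arrays reached an intensity of 157, the median of all values, and a level under 157 is not shown to lie above background, so the size of a fold from such a level is not established. The 4 arrays had medians between 155 and 159. All 24 probe sets of the poly-A control RNAs, which are commonly added before amplification, read lower on the Fbw7-deficient MP array (median log2 difference -0.68), while the 18 hybridisation controls had a median of -0.07. The 3' to 5' ratio of control probe sets was 2.60 and 2.95 for Gapdh and 2.67 and 2.99 for Actb, so it was somewhat higher on the Fbw7-deficient array. The part of these technical differences in the results was not tested.

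**Figure D1:**
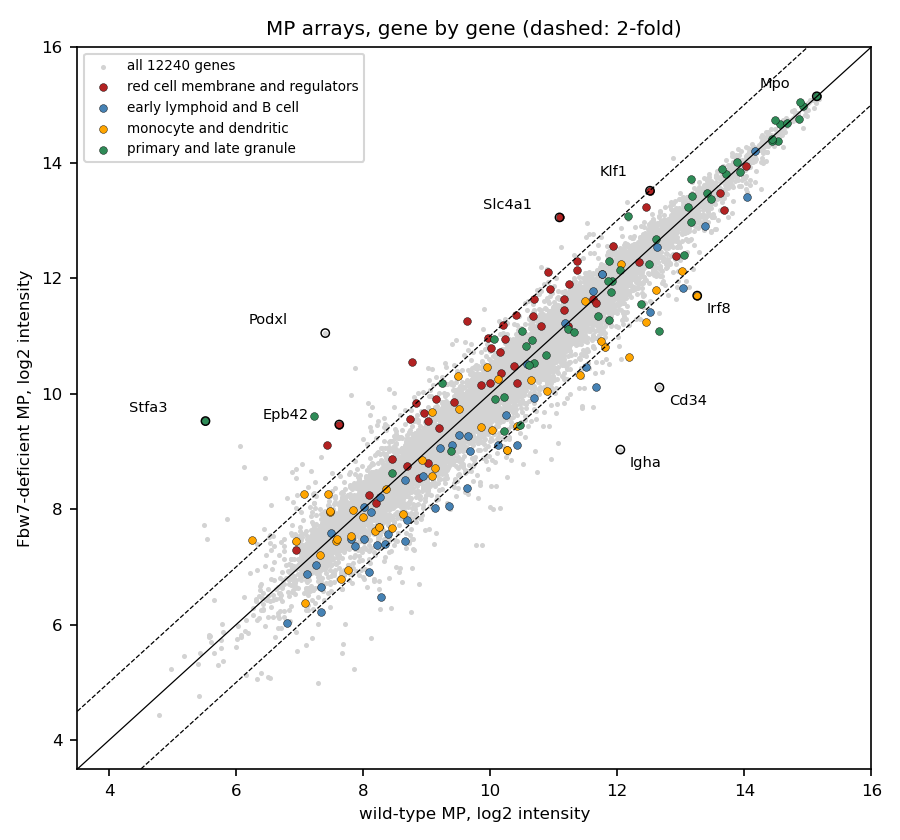
Log2 intensity of the 12240 genes on the wild-type MP array (horizontal) against the Fbw7-deficient MP array (vertical), with the line of equality and dashed lines at 2-fold. Red cell genes lie mostly above the line, early lymphoid and B cell genes mostly below it, and granule genes such as Mpo on it; Cd34, Igha, Podxl and Stfa3 are among the farthest from it.

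The label of the sort was compared with the genes that define the fraction. Kit, the receptor for stem cell factor, read 6509.9 and 4190.0. The primary granule enzymes were read far above the filter on both arrays, with Mpo at 36135 and 36278 and Elane at 23552 and 21158. Spi1, the transcription factor PU.1 of myeloid cells, read 1584 and 1522, and Gata1, which drives erythroid and megakaryocyte genes, read 3929 and 5992. Granulocytic and erythroid progenitor genes were thus present in both pools, as the MP label says. The Sca1 gene was not analysed here. Of the T and NK cell list, 12 genes were kept; Cd3e read 281 and 250.1 and Cd4 346 and 341, and 0 of the 12 differed by 2-fold. Xist and the Y-linked Eif2s3y were both read in both pools, Xist at 7032 and 5456 and Eif2s3y at 1651 and 1384. Fbxw7 itself read 691 and 958 (log2 difference 0.47; 0.44 at its other probe set above the filter). Without knowing which exons were deleted, this does not check the genotype.

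The genes that define the fractions within MP did not differ alike. Cd34, the sialomucin used to divide MP cells, read 6491 on the wild-type and 1103 on the Fbw7-deficient array, 5.89-fold lower (log2 difference -2.56). Fcgr3, the Fc gamma receptor used in the same division, read 2884 and 3106 (log2 difference 0.11). Podxl, a sialomucin of the CD34 family, read 169 and 2117, so the 2 relatives differed in opposite directions. Podxl has another probe set with a log2 difference of only 0.31, so its size depends on the probe set. Cd93, a surface glycoprotein of early progenitors, read 6486 and 2174, and Cd244a, a SLAM family receptor, 278 and 54.4. Both were at least 2-fold lower, Cd244a to a level under the filter and Cd93 short of 2-fold when the gene's probe sets were averaged. Aldh1a1, a retinaldehyde dehydrogenase often used as a progenitor marker, read 1710.4 and 3569.

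**Figure D2:**
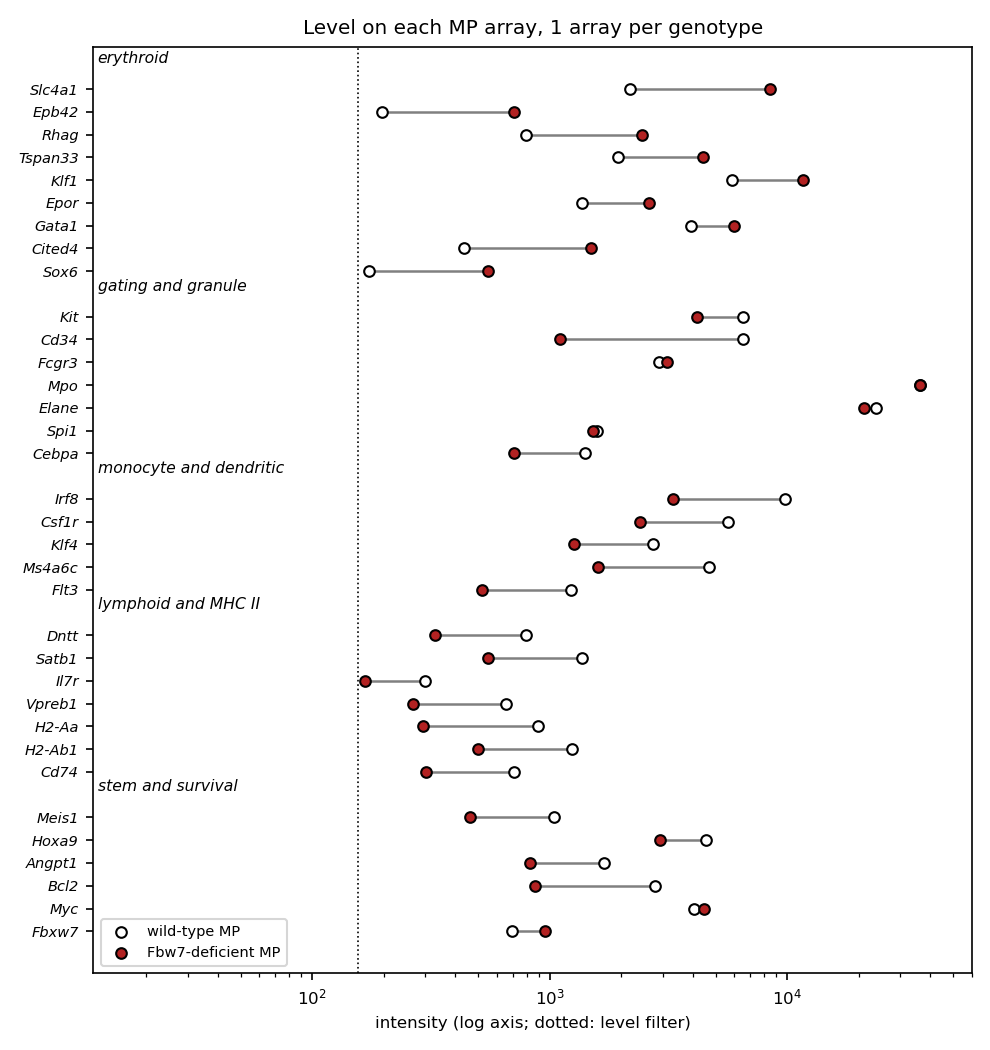
Intensity (log axis) of selected genes on the wild-type (open) and Fbw7-deficient (red) MP array, 1 array per genotype; the dotted line is the level filter of 157. Among the genes shown, red points lie to the right for erythroid genes and to the left for monocyte, dendritic, lymphoid and MHC class II genes. Mpo, Spi1 and Fcgr3 nearly coincide. The full lists are more mixed: 12 of 28 monocyte and macrophage, 3 of 16 dendritic, 3 of 27 early lymphoid and 4 of 12 class II genes lay above 0. Of the 22 red cell membrane genes 3 lay below 0.

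Erythroid genes were mostly higher in Fbw7-deficient MP cells. Of 22 kept genes of the red cell membrane and Rh complex, 19 lay above 0 with a median log2 difference of 0.76, against -0.0024 over all genes; 4 were at least 2-fold higher and 0 lower. Slc4a1, the band 3 anion exchanger, read 2182 and 8481 (3.89-fold; log2 difference 1.96, 1.40 at its other probe set). Epb42, which joins band 3 to the membrane skeleton, read 197 and 706, but 0.45 on the log2 scale at its other probe set. Rhag, the Rh-associated glycoprotein, read 792 and 2447, and Tspan33, a tetraspanin of erythroid progenitors, 1934 and 4431. Several other members did not reach 2-fold, among them the ankyrin gene Ank1 at 1651 and 3203, the water channel Aqp1 at 2638 and 5039 and the Kell antigen gene Kel at 1174 and 2323. Cd47, Slc2a1 and Cd59a were the members below 0, with Slc2a1, a glucose transporter, at 469 and 372.

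The regulators of the erythroid programme showed smaller differences. Of 30 kept members 22 lay above 0 (median 0.30), and 3 were at least 2-fold higher. Cited4, a CBP/p300-binding coactivator, read 435 and 1491, and Sox6, a transcription factor of definitive erythropoiesis, 173 and 553. Trim10, a RING-finger protein of maturing erythroid cells, read 996 and 2004. Klf1, the master activator of red cell genes, read 5856 and 11681, 1.99-fold higher, just short of the threshold, and the erythropoietin receptor Epor read 1364 and 2618 (log2 difference 0.94). Gata1 and its cofactor Zfpm1 had differences of 0.61 and 0.71. Cited4 and Sox6 did not reach 2-fold when the gene's probe sets were averaged, and Trim10 after 50 was added to both intensities. Tal1, which binds DNA with GATA1, read 2419 and 3797, while the members farthest below 0 were Cited2, at 7790.1 and 5363, and Lmo2, a bridging partner of TAL1, at 13189 and 9312.

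Iron and heme genes shared the direction with smaller sizes. All of 15 kept heme synthesis genes lay within 2-fold, 13 of them above 0 (median 0.30); Cpox, an enzyme of the porphyrin steps, had the largest value, 1262 and 1935, while the erythroid first enzyme Alas2 read 1970.1 and 2124. Of 15 iron genes 13 lay above 0 (median 0.31). The iron exporter Slc40a1, or ferroportin, read 1917 and 3907 and biliverdin reductase B, Blvrb, read 2556 and 5409; both were at least 2-fold higher, Slc40a1 less than that when the gene's probe sets were averaged. The transferrin receptor Tfrc read 9289.8 and 12956. Globin transcripts, which mark later erythroblasts, were represented by 2 kept genes. Hbb-b2 read 1083 and 1668 (log2 difference 0.62, but 0.04 at its other probe set above the filter). Hba-a2 read 156.6 and 138.9, under the filter, 156.7 before rounding, on both MP arrays.

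Promoter sequences are shown for 2 erythroid genes because GATA factors are the best known activators of this programme. They are RefSeq windows of 300 bases on GRCm38.p6, from 250 bases before to 50 after the start. The letters AGATAA, or TTATCT on the other strand, are in capitals. Epb42 lies at chr2:121036828-121037127 and Epor at chr9:21963527-21963826, both on the minus strand and printed 5′ to 3′ along the gene.
Epb42: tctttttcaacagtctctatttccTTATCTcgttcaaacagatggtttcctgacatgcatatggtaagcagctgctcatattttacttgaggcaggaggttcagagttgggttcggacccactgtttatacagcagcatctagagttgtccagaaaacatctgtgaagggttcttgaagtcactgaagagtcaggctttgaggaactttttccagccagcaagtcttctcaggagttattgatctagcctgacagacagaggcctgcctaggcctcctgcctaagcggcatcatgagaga
Epor: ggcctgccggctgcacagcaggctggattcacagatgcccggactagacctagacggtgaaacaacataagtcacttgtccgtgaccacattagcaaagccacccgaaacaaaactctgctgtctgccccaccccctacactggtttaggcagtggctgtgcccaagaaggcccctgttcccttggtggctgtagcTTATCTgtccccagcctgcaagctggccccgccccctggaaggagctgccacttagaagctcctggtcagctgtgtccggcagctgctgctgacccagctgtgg
The first match starts 226 bases before the start of Epb42 and 54 before that of Epor. Among all 32851 promoter windows 11.2% held these letters. By window the share was 6.76% for kept genes and 16.4% for the 61 windows of the membrane and regulator genes. Counted by gene, they were found in 10 of the 42 membrane and regulator genes with a window (23.8%), in 806 of 9901 kept genes with one (8.14%), in 10 of 75 of the 2-fold higher genes (13.3%) and in 12 of 141 of the lower genes (8.51%). A match is a description of the letters and not of a bound site.

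Megakaryocyte and platelet genes, the other branch of megakaryocyte-erythroid progenitors, were mostly lower. Of 24 kept members 4 lay above 0 (median -0.28), and 5 were at least 2-fold lower. Ppbp, a platelet chemokine, read 348 and 77.9, and Plek, pleckstrin of platelets and leukocytes, 2778 and 886. Itgb3, the beta chain of the platelet fibrinogen receptor, read 478 and 229.5, while its partner Itga2b read 2334 and 1427 (log2 difference -0.71). Mmrn1, a platelet granule protein, and Mef2c, a transcription factor also used by lymphoid cells, were the other 2 members past 2-fold, at -1.41 and -1.06; Mmrn1 and Itgb3 did not reach it when the gene's probe sets were averaged. The von Willebrand factor gene Vwf at 687 and 661 and the receptor gene Gp9 at 479.8 and 459.7 were close on both arrays, so the megakaryocyte genes did not differ as a block. Pf4, platelet factor 4, read 4032 and 2304.

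**Figure D3:**
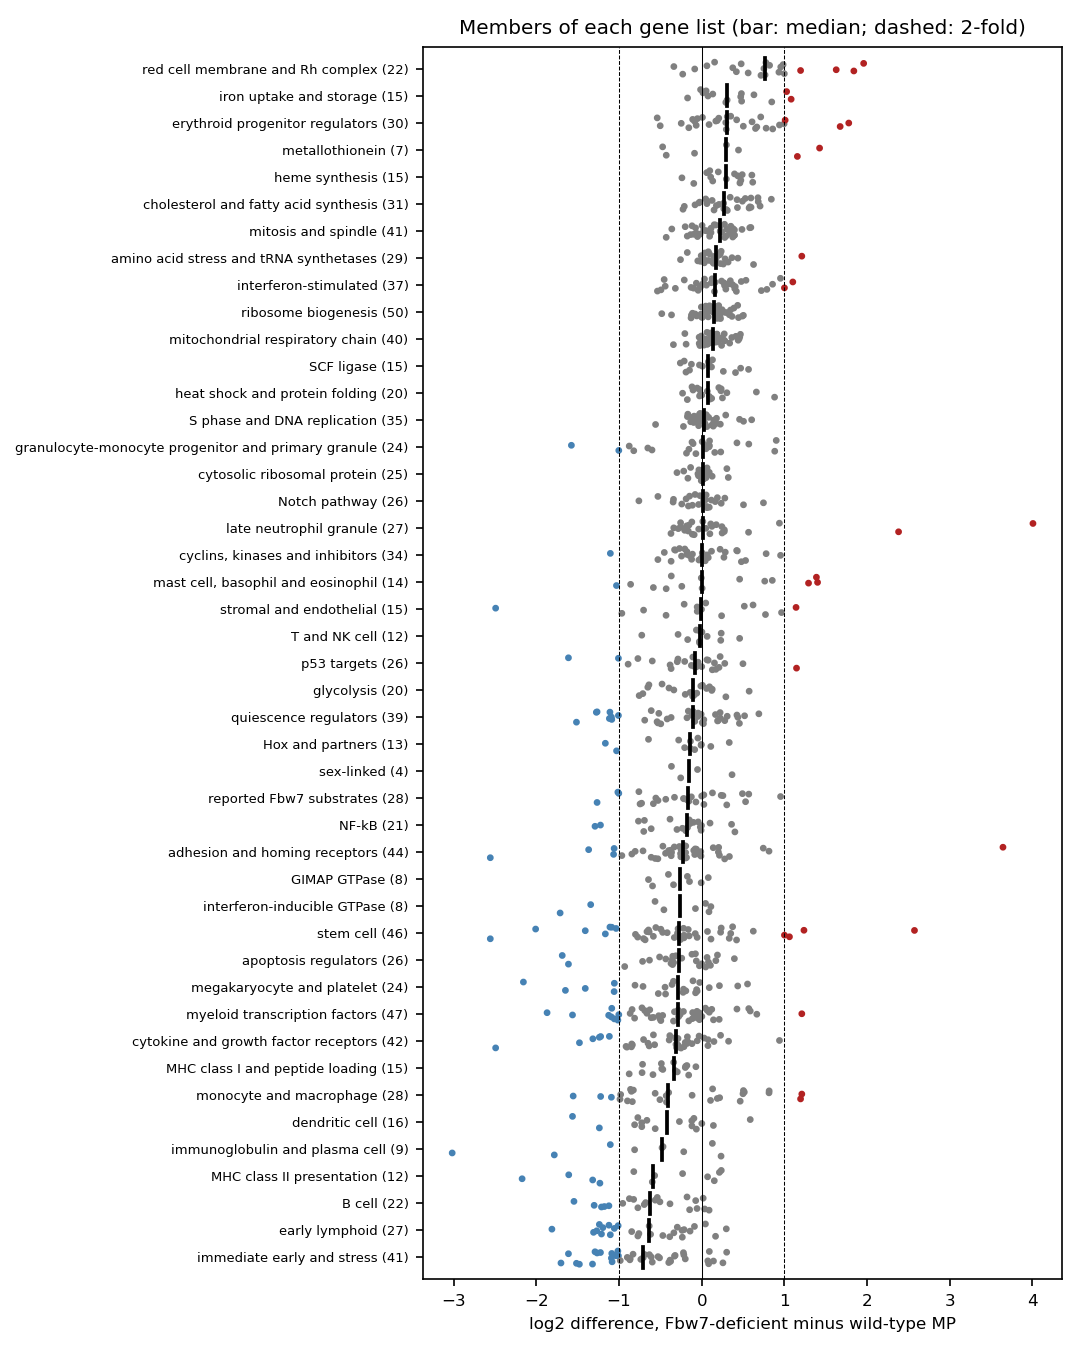
Log2 difference of every kept member of 45 gene lists (number of members in brackets), sorted by their medians (black bars), with members past 2-fold in red (higher) or blue (lower); the lists overlap. Medians run from -0.71 for immediate early genes to 0.76 for the red cell membrane, and the granule, ribosomal protein and S phase lists lie near 0.

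Neutrophil granule genes were among the closest between the genotypes. Of 24 genes of granulocyte-monocyte progenitors and primary granules 13 lay above 0 (median 0.02); the proteinases Prtn3 and Ctsg read 31123 and 32245, and 30258 and 33747. The exceptions past 2-fold were Cd93 and Cebpa, the transcription factor that granulocyte-monocyte progenitors need, at 1416 and 706 (2-fold lower), which did not reach 2-fold after 50 was added to both intensities. The median of 27 later granule genes was 0.01, with lactoferrin, Ltf, at 8866 and 9563 and the antimicrobial Camp at 15078 and 16421. Lcn2, lipocalin of specific granules, read 9131 and 13520. The only members past 2-fold were stefins: Stfa3, a cysteine protease inhibitor, read 45.8 and 737, the largest difference of all kept genes, and Stfa2l1 149 and 778. Stefin genes are near-identical copies that can share probes, and both wild-type levels were under the filter.

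Eosinophil and mast cell genes went both ways. Epx, eosinophil peroxidase, read 1779 and 4654, and Prg3, a granule major basic protein, 777 and 1902, while the related Prg2 read 7829 and 7800.0. Fcer1a, the IgE receptor chain of mast cells and basophils, read 111 and 294. Cpa3, mast cell carboxypeptidase, was at least 2-fold lower, at 4113 and 2012, and histidine decarboxylase, Hdc, read 6879 and 3789.7. The list's median over 14 genes was -0.00034, with 3 members at least 2-fold higher and 1 lower.

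Several monocyte and dendritic genes were at least 2-fold lower. Irf8, the transcription factor that specifies both lineages, read 9804 and 3318 (log2 difference -1.56; -1.47 at its other probe set), and Csf1r, the receptor for macrophage colony-stimulating factor, read 5624 and 2410.0 (-1.22). Klf4, a transcription factor of monocytes, read 2714 and 1272, and Ms4a6c, a membrane protein of the MS4A family, 4679 and 1592. These 4 genes were far above the filter in wild-type cells and at least 2-fold lower, Ms4a6c less than 2-fold when the gene's probe sets were averaged. Of 28 monocyte and macrophage genes 12 lay above 0 (median -0.41) and 3 were at least 2-fold lower, and of 16 dendritic genes 3 lay above 0 (median -0.42). Both medians moved with the level filter, to -0.04 (monocyte) and -0.12 (dendritic) without it and to -0.83 and -0.75 with the filter at an intensity of 606. Flt3, the receptor tyrosine kinase of dendritic and lymphoid progenitors, read 1229 and 521.

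The 2 members of the monocyte and macrophage list that were at least 2-fold higher were read at low levels. Maf, a transcription factor of mature macrophages, read 76.1 and 176, and the complement gene C1qb 135 and 309. Both were at least 2-fold higher, with wild-type values under the filter, and neither was after 50 was added to both intensities. Other macrophage genes of the list lay on both sides: Cd163, a scavenger receptor, read 200.1 and 110.1, Cd68, a lysosomal glycoprotein, 542 and 381, and Adgre1, which encodes F4/80, 563 and 419. Vcam1, the adhesion molecule of marrow macrophages and stroma, read 717 and 1261, Mrc1, the mannose receptor, 175 and 308, and the collagen gene Col1a1 324 and 713. Of the 15 stromal and endothelial genes, 1 was at least 2-fold higher (Col1a1, less than that with its probe sets averaged) and 1 lower; the summed intensity of the list was 18618 and 16739. The lower gene was Pdgfrb, a receptor of perivascular cells, at 937 and 166. The part of a few non-hematopoietic or macrophage cells in these values was not tested.

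Among the myeloid transcription factors 12 of 47 lay above 0 (median -0.29), with 1 at least 2-fold higher and 8 lower. Bach2, a repressor needed in lymphoid development, read 392 and 107, and Zeb2, a zinc finger repressor, 3265 and 1496, which was less than 2-fold when the gene's probe sets were averaged. Gfi1b, a repressor of erythroid and megakaryocyte cells, read 1633 and 2592, whereas Gata2, which precedes Gata1 in early progenitors, read 2220.1 and 1480.1. Spi1 differed by -0.06 on the log2 scale, so Irf8 and Cebpa were lower at a nearly equal level of PU.1 transcript.

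Genes of antigen presentation were mostly lower, with larger differences among those of class II. Of 12 class II genes 4 were at least 2-fold lower (median -0.58). H2-Ob, a chain of the peptide editor H2-O, read 469 and 104, and H2-Aa, the class II alpha chain, 895 and 294. H2-Ab1, the beta chain, read 1248 and 500.2, and Cd74, the invariant chain, 707 and 301. H2-Ab1 did not reach 2-fold when the gene's probe sets were averaged. The transcriptional subunit Rfx5 read 1919 and 1293, and its partners Rfxap and Rfxank had log2 differences of 0.21 and 0.15. None of 15 class I and peptide loading genes passed 2-fold, yet all of them lay below 0 (median -0.34), against 50.4% of all kept genes. H2-K1 read 14442 and 10332, and the immunoproteasome genes Psmb8 and Psmb9 read 5513 and 3343, and 3470.3 and 2113.

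Class II promoters are known for an inverted CCAAT motif, the Y box, so 2 windows are shown with CTGATTGG, or CCAATCAG on the other strand, in capitals. H2-Aa lies at chr17:34287774-34288073 on the minus strand and H2-Eb1 at chr17:34305617-34305916 on the plus strand (RefSeq, GRCm38.p6, 5′ to 3′ along the gene).
H2-Aa: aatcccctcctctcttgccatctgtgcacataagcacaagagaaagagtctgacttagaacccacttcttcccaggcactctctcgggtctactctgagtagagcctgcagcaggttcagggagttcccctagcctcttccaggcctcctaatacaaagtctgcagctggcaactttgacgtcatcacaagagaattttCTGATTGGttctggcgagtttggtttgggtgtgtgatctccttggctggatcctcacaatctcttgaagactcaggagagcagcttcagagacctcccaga
H2-Eb1: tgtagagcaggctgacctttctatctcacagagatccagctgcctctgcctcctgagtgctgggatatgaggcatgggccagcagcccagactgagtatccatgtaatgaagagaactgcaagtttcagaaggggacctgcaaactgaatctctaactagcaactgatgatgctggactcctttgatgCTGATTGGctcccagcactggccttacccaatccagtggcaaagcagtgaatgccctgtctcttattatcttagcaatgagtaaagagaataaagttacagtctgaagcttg
The match starts 51 bases before the start in H2-Aa and 62 before it in H2-Eb1. These letters were in 4.1% of all 32851 windows. Counted by gene, they were found in 625 of 9901 kept genes with a window (6.31%) and in 3 of the 9 class II list genes with one (33.3%), H2-Aa, H2-Eb1 and H2-Oa. Their log2 differences were -1.61, -0.60 and -0.23, so genes with the letters differed by unequal amounts, and H2-Ob, with the list's lowest value, had no match in its window.

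Early lymphoid genes were lower as a list. Of 27 kept members 3 lay above 0 (median -0.64), and 10 were at least 2-fold lower. Emb, the cell adhesion protein embigin, read 8379 and 3658, and Cd27, a TNF receptor family member of lymphoid-primed progenitors, 1112 and 552. Dntt, the terminal transferase of antigen receptor joining, read 794 and 329, and Satb1, a chromatin organiser of lymphoid priming, 1365 and 551. The interleukin 7 receptor Il7r read 299 and 166 (log2 difference -0.85). Ikzf1, the lymphoid factor Ikaros, read 6324 and 5949 and Tcf3, the E protein E2A, 2322 and 2396. These 2 broadly expressed lymphoid regulators were close, unlike Satb1. Dntt and Satb1 did not reach 2-fold when the gene's probe sets were averaged, which took the list's median to -0.39; Cd27 did not with 50 added to both intensities. Rag1, the recombinase, read 162 and 74.5, near or under the filter on both arrays.

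Among B cell genes 3 of 22 lay above 0 (median -0.62) and 5 were at least 2-fold lower. Ly86, also called MD-1, a partner of the receptor RP105, read 3245 and 1112. Cd72, a B cell coreceptor, read 563 and 258, Blnk, a B cell linker protein, 404 and 174, and Vpreb1, part of the surrogate light chain, 655 and 266. Cd72 did not reach 2-fold with 50 added to both intensities. With the filter at 606 the median was -0.999. Pax5, the factor that fixes B cell identity, read 258 and 261, and Cd79a, the B cell receptor signalling chain, 259.7 and 179. Igha, the IgA heavy chain that plasma cells secrete, had the largest negative difference of all kept genes, at 4238 and 523 (log2 difference -3.02; -3.56 to -2.11 at its other probe sets), and Jchain, which joins secreted immunoglobulin, read 435 and 126. The plasma cell marker Sdc1 read 273 and 235 and Xbp1, which drives secretion, 7817 and 8546. Over the 9 immunoglobulin and plasma cell genes the summed intensity was 21198 and 14088, with 3 genes at least 2-fold lower. The part of a few plasma or B cells in the sorts was not tested.

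Genes known from stem cells showed no single direction. Of 46 kept members 4 were at least 2-fold higher and 7 lower, with 13 above 0 (median -0.27). Meis1, a homeobox partner of HOX proteins, read 1041 and 464. Hhex, a homeobox factor of early progenitors that is not in this list, read 3587 and 1756. Hoxa9 itself read 4566 and 2922 (log2 difference -0.64), and Angpt1, the ligand of the receptor TIE2, 1695 and 827. Higher members were Clca3a1, a chloride channel accessory protein, at 235 and 1398, and Tgm2, tissue transglutaminase, at 628 and 1479.9. Ifitm1, an interferon-induced membrane protein, read 5802 and 11608, a difference that 50 added to both intensities takes under 2-fold. Meis1, Angpt1 and Tgm2 did not reach 2-fold when the gene's probe sets were averaged, and the list's median was then -0.16. Defining stem cell genes such as Mecom (145 and 119), Procr (187 and 116) and Prdm16 were at or near the filter on both arrays and no size is drawn from them.

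Immediate early genes, which are switched on within minutes of a stimulus, had the lowest median of the lists with the processing used here. Under other settings the B cell, plasma cell, monocyte, dendritic and MHC class II lists reached lower medians. Of 41 kept members 14 were at least 2-fold lower and 0 higher, with 6 above 0 (median -0.71). Klf6, a zinc finger factor, read 4607 and 1612, Klf2, known for keeping lymphocytes quiescent, 6485 and 2697, and Egr1 7090.3 and 3335. Fos read 31161 and 24930 (log2 difference -0.32) and Jun 7989 and 3955, so the AP-1 genes differed by unequal amounts. The inhibitors of NF-kB signalling Tnfaip3 (3616 and 1547) and Nfkbiz (1497 and 612) were at least 2-fold lower, as was the chemokine Cxcl2 (1675 and 514). Among 20 heat shock and folding genes none passed 2-fold (median 0.08), and the chaperone gene Hspa1b read 3321 and 6117. Tnfaip3, Nfkbiz and Btg2 did not reach 2-fold when the gene's probe sets were averaged.

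Among regulators of quiescence 8 of 39 were at least 2-fold lower, 0 higher, and the median was -0.10. Of the 8 lower members 5 also belong to the immediate early list; the others include Ccng2, cyclin G2, at 2362 and 976, and Txnip, the thioredoxin-interacting protein, at 3004 and 1391. Tgfbr2, a receptor for the growth inhibitor TGF-beta, read 1605 and 739.7. Ccng2, Txnip and Tgfbr2 did not reach 2-fold when the gene's probe sets were averaged, and the list's median was then -0.06. The CDK inhibitors Cdkn1a (801 and 619) and Cdkn1b (663 and 666) stayed within 2-fold, as did Foxo3.

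Survival genes included large single differences. Bcl2, which blocks mitochondrial apoptosis, read 2782 and 864 (log2 difference -1.69), with -1.54 to -0.37 at its other probe sets. Mcl1, another survival member of the family, read 11558 and 8549, and Bcl2l1, which encodes BCL-XL of late erythroid cells, 1158 and 1304. Pmaip1, which encodes the pro-apoptotic NOXA, read 384 and 126, so genes that oppose and promote apoptosis were both lower. Casp1, the inflammatory caspase, read 2317 and 1215. Over 26 regulators 7 lay above 0 and the median was -0.28; for 26 p53 targets it was -0.08.

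Receptors for cytokines and growth factors were mostly lower, with 7 of 42 above 0 (median -0.31) and 6 at least 2-fold lower. Il6st, the shared gp130 chain of the interleukin 6 family, read 782 and 314, and Met, the hepatocyte growth factor receptor, 1942 and 696, both short of 2-fold when the gene's probe sets were averaged. Csf2rb, the common beta chain of interleukin 3 and GM-CSF receptors, read 4493 and 2492 (log2 difference -0.85), and Csf3r, the G-CSF receptor, 2404 and 2215. Epor was the highest member of this list at 0.94 and Pdgfrb the lowest at -2.49. Among 44 adhesion and homing genes 4 were at least 2-fold lower: Cd34, Itgb3, Itgal (the LFA-1 alpha chain, 2105 and 816, less than 2-fold when its probe sets were averaged) and Selplg (the selectin ligand PSGL-1, 5255 and 2509.6). The homing receptor Cxcr4 read 662 and 767.

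The reported substrates of Fbw7 were read as transcripts. Ccne1, cyclin E1, read 3445 and 6673 (log2 difference 0.95; 1.09 at its other probe set) and Ccne2 876 and 1265. Myc read 4073 and 4457 (0.13), and Notch1 1650.1 and 974 (-0.76). The other probe set of Notch1 above the filter read 388 and 380 (-0.03), so its difference rests on 1 probe set. Of 28 kept substrates 10 lay above 0 (median -0.16); the 3 past 2-fold were Klf2, Jun and Cebpa, all lower. The partners of Fbw7 in the ligase were close, with Skp1 at 8067 and 8531 and Cul1 at 4397 and 4424. None of 26 Notch pathway genes passed 2-fold (median 0.02); the target Hes1 read 173 and 179.

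Cell cycle genes differed little. The median of 35 S phase genes was 0.02 and that of 41 mitotic genes 0.22, with 30 of the latter above 0 and no gene of either list past 2-fold. Mcm2, of the replicative helicase, read 9539.7 and 9305, Rrm2, of ribonucleotide reductase, 7392 and 10152, and Ube2c, a ubiquitin conjugase of mitotic exit, 3802 and 5686. Ccnd1, cyclin D1, was the only 2-fold difference among 34 cyclins, kinases and inhibitors, at 976 and 454 and less when the gene's probe sets were averaged, while Ccnd2 read 5516 and 5537.

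Lists of ribosome, respiratory and lipid genes had small positive medians and no member past 2-fold at the probe set used. The same held for 25 cytosolic ribosomal protein genes (median 0.02). Another, bright probe set of the ribosomal protein gene Rps9, however, read 27688 and 4444. Its log2 difference was -2.64 in MP and -2.37 in LSK cells, so the reading of Rps9 depends on the probe set. Of 50 ribosome biogenesis genes 40 lay above 0 (median 0.15), of 40 respiratory chain genes 32 (median 0.14) and of 31 lipid synthesis genes 26 (median 0.27). Nop56, of the small nucleolar particles, read 6070.0 and 8263, and Idi1, an isomerase of the sterol pathway, 1605 and 2578. Among glycolysis genes 7 of 20 lay above 0; Hk2, hexokinase 2, read 2571 and 1522, and Pkm, pyruvate kinase, 9499 and 6101. Asns, asparagine synthetase, was the only one of 29 amino acid genes past 2-fold, at 3015 and 6977 (1.41 at its other probe set), while Atf4, its activator, read 6580.1 and 6505. The metallothioneins Mt1 (4573 and 10197) and Mt2 (2948 and 7921), which bind zinc and copper, were at least 2-fold higher, Mt1 less when the gene's probe sets were averaged, and their activator Mtf1 read 558 and 686.

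Genes that interferon induces were of interest because all mice had received polyI:C. Of 37 kept members 25 lay above 0 (median 0.16, or 0.30 with the filter at 606). Isg20, an antiviral exonuclease, read 1751 and 3388, and Rsad2, or viperin, 2046 and 3705. Ifit1 at 99.2 and 98.3 and Oasl2 at 130.5 and 146 lay under the filter on both arrays, as did Ifit3. Eif2ak2, the kinase PKR, read 183 and 393, but its other probe sets gave -0.02 to 0.21. Of 8 kept interferon-inducible GTPases 3 lay above 0. Their median was -0.27, and from -0.46 to -0.03 over the processing settings. At least 2-fold lower were 2 of them, the guanylate-binding Gbp2 at 555 and 169 and Gbp3 at 3727 and 1469. Interferon-related genes therefore did not share a direction.

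Among the 25 largest differences each way were genes outside these groups. Trgv4, a T cell receptor gamma variable segment, read 67.2 and 545 (3.46 at its other probe set), and Plek2, the pleckstrin relative of erythroid cells, 70.0 and 427. Ctsk, a cysteine protease, read 87.5 and 372, Agtr1a, an angiotensin receptor, 283 and 872, and Tjp1, the tight junction protein ZO-1, 958 and 2811. Of these only Agtr1a and Tjp1 were above the filter in wild-type cells. Lower genes included Hpse, the heparan sulfate cleaving enzyme, at 1135 and 259.5, and Tpm4, a tropomyosin, at 1698 and 399. Hmgn3, a nucleosome-binding protein, read 1980.5 and 469.6 (-2.43 at its other probe set). Tgfb1, the TGF-beta ligand itself, read 3154 and 876, but -0.25 at its other probe set, so that difference rests on 1 probe set.

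A further probe set of the same gene gives a second reading on the same RNA, though not a replicate. Of the 283 genes past 2-fold (2.31% of all), 110 have another that passes the filter, and at 105 of them it differed in the same direction, at 45 by at least 2-fold. The median size was 1.21 at the probe set used and 0.84 at the further one. Over all 5043 genes with a further probe set the median gap between their log2 differences was 0.17 and the 95th percentile 0.62. The 45 are part of the 105, so the 2 counts cannot show whether direction or size is shared more often. The 110 genes were picked by size at the probe set used, so the 2 median sizes are not compared on equal terms. The share of matching directions over all genes was not counted.

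**Figure D4:**
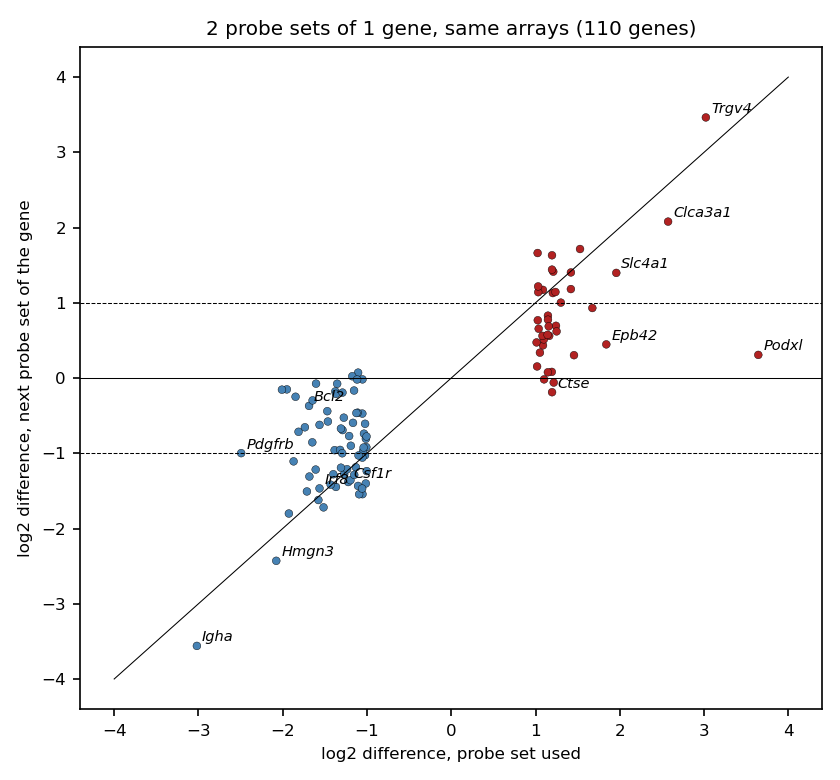
Log2 difference at the probe set used (horizontal) against the next probe set of the same gene (vertical) for the 110 genes past 2-fold that have one; the diagonal marks equality and dashed lines 2-fold. At 105 genes the signs match and at 45 the further probe set is also past 2-fold, while Podxl is 3.64 at one and 0.31 at the other.

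LSK cells were read on their own arrays but came from the same mouse pools. Of the 101 genes at least 2-fold higher in Fbw7-deficient MP cells, 46 (45.5%) were also at least 2-fold higher in Fbw7-deficient LSK cells, where 1.79% of all genes were; they make up 21% of the 219 higher LSK genes. Of the 182 lower genes 55 (30.2%) were lower in LSK, where 1.95% of all genes were, or 23% of the 239 lower LSK genes. By direction alone, 88 of the 101 higher genes lay above 0 in LSK, as did 50.8% of all genes, and 148 of the 182 lower genes lay below 0, as did 49.2% of all genes. A 2-fold difference either way was seen for 3.74% of genes in LSK. The red cell membrane list had a median of 0.96 in LSK and 0.76 in MP, Slc4a1 3.12 and 1.96, and Stfa3 4.57 and 4.01. Gbp2 was -2.69 and -1.71, and Pdgfrb -2.29 and -2.49. Cd34 differed by -0.54 in LSK against -2.56 in MP, and Irf8 by 0.76 against -1.56. Whether the genotype differences of the populations differ was not tested, since each has 1 array a side.

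**Figure D5:**
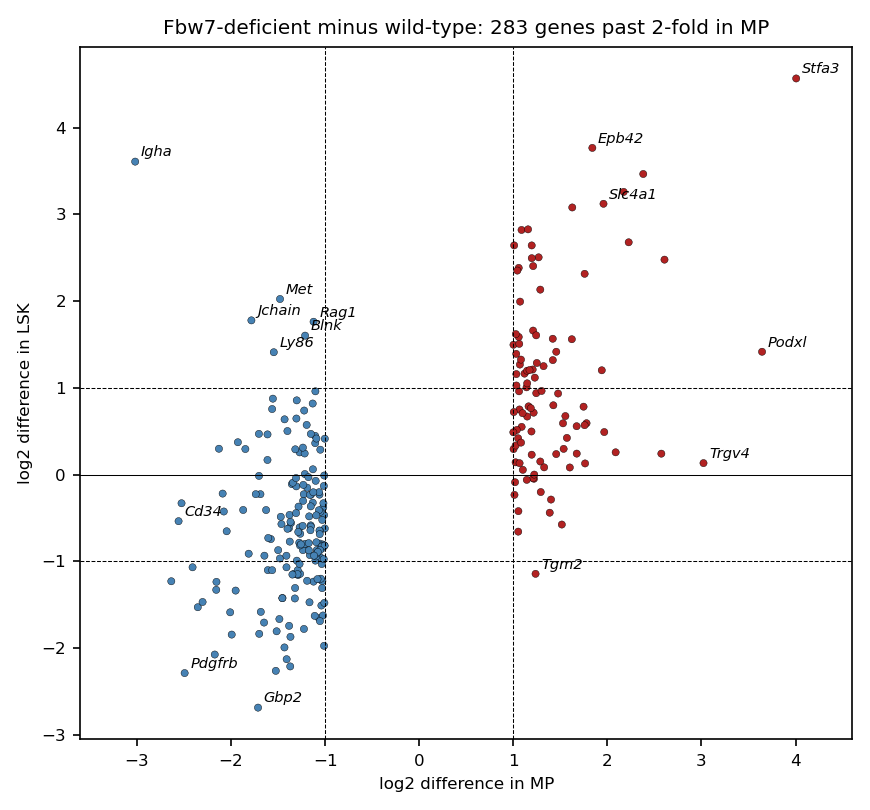
Log2 genotype difference in MP (horizontal) against LSK (vertical) for the 283 genes past 2-fold in MP, with dashed lines at 2-fold. Of the 101 higher genes 46 lie above the upper dashed line, of the 182 lower genes 55 lie under the lower one, and Igha, Jchain, Met, Ly86, Blnk, Rag1 and Tgm2 are past 2-fold in opposite directions.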

How the data were processed

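Per the submitters' processing notes the arrays were summarised by RMA; the sources used here give neither its version nor its settings. Each deposited value is the intensity of 1 probe set, on a linear scale. RMA equalises the arrays' distributions, so a change in total RNA per cell is not seen, and it compresses differences of dim genes. Values were taken to log2 here. Of 45101 probe sets, 34958 name exactly 1 gene, 932 name several and were not used, and 9211 are unnamed, 9160 of them not controls. Some of the 64 control probe sets name a gene, such as Gapdh or Tfrc, and were treated as probe sets of that gene. By gene ID 34754 symbols were looked up in RefSeq (GRCm38.p6). A gene is its probe set with the highest mean over the 4 arrays.

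A difference is called at 2-fold; with 1 array per group there is no test, SE or p-value, and the number of arrays limits the precision. The 46 gene lists (1205 distinct genes, 1099 named on the array, 992 kept) overlap, and they, the 2 arrays compared and the named genes were chosen with earlier results of these data known. Named were the 25 largest rises and falls (clone names and genes with an opposing probe set left out), list members past 2-fold or otherwise up to 4 with the largest difference per list, and a fixed set including Fbxw7, Cd34 and Klf1; other list members were added after their values were seen, to show genes that were close. Genes that the annotation used here does not name, such as those for Sca1 and p53, were not analysed here. Alternatives were other probe set choices, level filters, centring, a lowess curve on level and a pseudocount of 50. The script was tested on simulated data. Python 3.11.15, pandas 2.3.3, numpy 2.4.6 and statsmodels 0.14.6 were used.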

Additional observations from a re-analysis of the deposited data

Results flagged for a closer look

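In 7 genes both populations differed by at least 2-fold between genotypes and in opposite directions. That the populations differ was not tested. Of the 182 genes lower in MP, 6 (3.3%) were at least 2-fold higher in LSK, where 1.79% of all genes were. Of the 101 genes higher in MP, 1 (0.99%) was at least 2-fold lower in LSK, where 1.95% of all genes were. Igha was -3.02 in MP and 3.61 in LSK cells (log2, Fbw7-deficient minus wild-type). Jchain was -1.78 in MP and 1.78 in LSK. Ly86 was -1.55 in MP and 1.41 in LSK, and Blnk -1.21 and 1.60. Rag1 was -1.12 in MP and 1.76 in LSK, and Met -1.48 and 2.02. Tgm2 was 1.24 in MP and -1.14 in LSK. Of these genes, Igha, Jchain, Ly86, Blnk and Rag1 are known from B lineage or plasma cells.

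Probe sets that the annotation used here does not name were left out of all comparisons. Among 9160 of them other than controls, 2796 passed the level filter. In Fbw7-deficient MP cells 13 of these 2796 were higher and 21 lower by 2-fold or more, as were 101 and 182 of the 12240 named genes. The largest were 1424631_a_at, at 88.7 and 413 (log2 difference 2.22), and 1428720_s_at, at 512 and 120 (-2.10). Each had 1 MP value under the filter, so these sizes are not established. In LSK cells 1424631_a_at differed the other way, by -3.08.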

How the results depend on the processing

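When all probe sets of a gene were averaged, 67 genes were at least 2-fold higher and 104 lower, against 101 and 182. Under the other alternatives (other probe set choices, level filters, centring, lowess, pseudocount) both counts stayed within 1.5 times, from 71 to 105 higher and from 127 to 186 lower, lowest with the stricter filter and the pseudocount. Of 121 named genes past 2-fold, 85 of the 117 with a value passed it after averaging, 107 of 121 with the pseudocount, 113 of 118 without probe sets that can match several transcripts, and all 121 without a filter, centred or with lowess. Eif2ak2 reversed to -0.018 when the probe set was chosen on the MP arrays. Of the 45 list medians, none that lay at least 0.1 from 0 reversed. No paired analysis was possible because each group has 1 array; for the same reason no replicate could be left out. A value under the filter may be background, and sizes from it are not established.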

Other observations

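Some genes past 2-fold lay beside each other in the genome order of the kept genes. Genes that were not kept were passed over, so they may lie between 2 such neighbours. Among 12221 kept genes placed in RefSeq order, 283 were past 2-fold, 101 of them higher and 182 lower, and 17 pairs of direct neighbours were both past 2-fold, with both genes on the same side in all 17. The pairs are not separate observations, since several share a gene, and whether this exceeds what the 2 shares give was not tested. Several pairs were members of 1 gene family, such as the G protein regulators Rgs2 (-1.04), Rgs1 (-1.32) and Rgs18 (-1.19), the membrane proteins Ms4a4b (-1.10), Ms4a6c (-1.55) and Ms4a6b (-1.24), and the apolipoproteins Apol11b (1.09) and Apol8 (2.17). Other neighbours belong to different families, such as Pdgfrb (-2.49) beside Csf1r (-1.22), and Blnk (-1.21) beside Dntt (-1.27). Gpr171 (-2.41) and the UDP-sugar receptor gene P2ry14 (-1.30), both G protein-coupled receptors, lie beside Med12l (-1.05). Members of 1 family can share probe sequence, and its part was not tested.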
